A study of Arabidopsis thaliana with 4 samples.

Results

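AER, AT5G16980 and DTX4 are Arabidopsis genes of detoxification, the first an alkenal reductase, the second its relative and the third a transporter of the MATE (multidrug and toxic compound extrusion) family. They were taken by symbol or locus, through the platform annotation joined to the RefSeq gene table, and each had a probe set annotated to it alone. The 3 genes stood among 13350 with such a probe set. They are read by probe sets 246463_at (AER, AT5G16970), 246464_at (AT5G16980) and 263401_at (DTX4). The tables give the transporter gene by its locus, AT2G04070, and DTX4 is its name in general use. The genes had been chosen because earlier results of these arrays showed them lower in the arrays labelled 35S:OsGSTU4, so their values are a description and carry no test.

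Whole-seedling RNA was hybridised to 4 Affymetrix arrays, on which a set of short oligonucleotides reads each transcript. The transgenic group, 35S:OsGSTU4, has 2 arrays and carries OsGSTU4, a rice gene for a glutathione S-transferase of the tau class, under the constitutive CaMV 35S promoter, and the wild-type group (WT) has 2 arrays and no transgene. All seedlings were Columbia, 14 days old, unstressed and grown on MS medium under 16 h of light and 8 h of darkness. The light hours follow the sample records, while the paper's methods give a shorter day. The submitters call the arrays of a group biological replicates. The labels read GST overexpression without naming the gene or the line, and a sentence of the design text names a GRX line. The paper states that a single transgenic line was hybridised, so the group stands for that line only. Groups are named by the labels, under which all 17 comparable genes of the study's printed list had the opposite sign. Whether the labels or the printed signs are exchanged was not tested. Lower in 35S:OsGSTU4 therefore means lower in the arrays with that label.

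Lipid peroxidation in stressed plants releases reactive carbonyls, aldehydes and ketones with a double bond beside the carbonyl group, which bind to proteins and to glutathione. Alkenal reductases use NADPH to saturate that double bond and so make the compound less reactive. MATE transporters move organic molecules across the plasma membrane or into the vacuole in exchange for protons or other cations. Glutathione S-transferases take up the same kind of reactive compounds by joining them to glutathione.

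The values are log2 signals made by the authors. Medians of the arrays were 7.41 and 7.42 in 35S:OsGSTU4, and 7.29 and 7.37 in WT. Across 22746 probe sets, which are not independent replicates, arrays correlated at 0.909 within 35S:OsGSTU4, at 0.901 within WT and at 0.900 to 0.909 between the groups, so the genotypes did not stand apart as wholes. Replicate 1 of 35S:OsGSTU4 had 5.96 at the control probe set for 25S ribosomal RNA, whereas the other transgenic array had 12.76 and both WT arrays had 12.54. The gap between 3′ and 5′ actin controls, which widens as RNA is less complete, was 4.07 and 3.76 in 35S:OsGSTU4, and 3.48 and 3.53 in WT. The same gap for the GAPDH controls was 1.05 and 1.36 in 35S:OsGSTU4, and 1.01 and 0.96 in WT. The shoot was well represented, as 3 of 11 shoot markers had a probe set of their own and their summed linear signal was 34455 and 43545 in 35S:OsGSTU4, and 28492 and 38330 in WT. Of 11 root markers only the root hair expansin gene EXPA7 had one, at 6.79 and 4.50 in 35S:OsGSTU4, and 7.11 and 7.17 in WT. The part of these values in the results below was not tested. In RNA from whole seedlings, fewer cells of a type and less RNA per cell cannot be told apart.

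AER, which encodes the alkenal reductase itself, was a bright probe set on every array. Its log2 signal was 10.84 and 10.70 in 35S:OsGSTU4, and 11.35 and 11.52 in WT. Both transgenic arrays lay below both WT arrays, with 0.51 log2 units between the nearest pair. On the linear scale the signals were 1836 and 1663 in 35S:OsGSTU4, against 2617 and 2942 in WT, so that the transgenic mean (taken on the log2 scale) was 63.0% of the WT mean. The difference, 35S:OsGSTU4 minus WT, was -0.67 with a standard error of 0.23 from limma. Of the 1547 probe sets at least as bright, AER included, 34 (2.2%) had a difference that low. Signs given here follow the labels of the arrays, and their direction is opposite to that printed by the study for its differentially expressed genes. Of the genes in that printed list with a probe set of their own, 17 could be compared and 17 had the opposite sign here, while 0 of the 3 genes described here are in it. The probe set stood at percentiles 91.5 and 90.8 of all probe sets in 35S:OsGSTU4, and at percentiles 94.2 and 95.0 in WT.

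AT5G16980, the relative of AER, showed the widest separation of the groups among the 3 genes. Its log2 signal was 7.26 and 6.83 in 35S:OsGSTU4, and 8.95 and 8.86 in WT. The nearest transgenic and WT arrays were 1.59 log2 units apart, whereas arrays of a genotype differed by 0.43 in 35S:OsGSTU4 and by 0.09 in WT. The linear signals were 154 and 114 in 35S:OsGSTU4, against 494.5 and 464 in WT, and the transgenic mean was 27.6% of the WT mean, a difference of -1.86 (standard error 0.27). On the transgenic arrays the gene lay near the middle of all probe sets, at percentiles 48.1 and 42.8, and on the WT arrays well above it, at percentiles 73.0 and 71.6. Among the 9498 probe sets at least as bright, AT5G16980 included, 2 had a difference that low, a description for a gene chosen by this difference. A further probe set is annotated to AT5G16980 together with another gene and was not used for either. The 2 alkenal reductase genes changed unequally: within the arrays, the log2 signal of AT5G16980 relative to AER was lower by 1.19 in 35S:OsGSTU4 than in WT, a factor of 2.28.

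DTX4, the transporter gene, was dim and varied most. Its log2 signal was 5.08 and 3.25 in 35S:OsGSTU4, and 5.86 and 5.37 in WT. Both transgenic arrays were again below both WT arrays, but by only 0.29 log2 units at the nearest pair, less than the gap of 0.49 between the WT arrays and of 1.83 between the transgenic arrays. The linear signals were 33.8 and 9.5 in 35S:OsGSTU4, against 58.1 and 41.3 in WT, with a difference of -1.45 (standard error 0.75). Replicate 2 of 35S:OsGSTU4 carried much of it: the difference was -0.53 without that array and -2.36 without replicate 1 of the same group. EXPA7, given above, was likewise lowest on that array. Among the 1882 probe sets within 0.5 log2 units of the mean of DTX4, the median gap between replicates was 1.01 in 35S:OsGSTU4 and 1.16 in WT. The transgenic arrays of DTX4 were thus farther apart, and its WT arrays closer, than is usual at this signal. Of these 1882, DTX4 included, 281 (14.9%) had a difference at or below its own. The deposited values carry no detection call, so whether DTX4 was above background on each array is unknown.

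**Figure D1:**
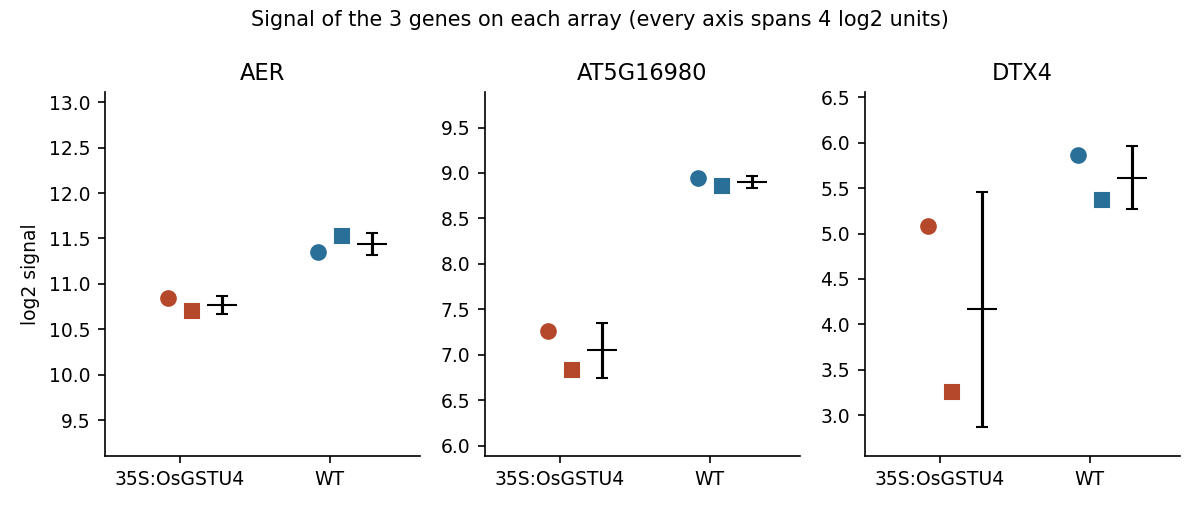
Log2 signal of AER, AT5G16980 and DTX4 on the arrays labelled 35S:OsGSTU4 (left in each panel) and WT (right). Circles are replicate 1, squares replicate 2, and the black mark beside them is the mean with its SD (n = 2). AT5G16980 lies at 7.26 and 6.83 in 35S:OsGSTU4 and at 8.95 and 8.86 in WT, while the transgenic arrays of DTX4 spread from 3.25 to 5.08.

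In mean ± SD (n = 2 each), AER had 10.77 ± 0.10 in 35S:OsGSTU4 and 11.44 ± 0.12 in WT. AT5G16980 had 7.05 ± 0.31 in 35S:OsGSTU4 and 8.90 ± 0.07 in WT, and DTX4 had 4.17 ± 1.29 in 35S:OsGSTU4 and 5.61 ± 0.35 in WT. The groups did not overlap at any of the 3 genes, where 16.3% of all probe sets were lower in this way. The study used a change by a factor of 2 or more and a P no higher than 0.05, without saying whether P was adjusted. Its list holds fewer genes than the 1074 probe sets past these thresholds here. Its methods also name more biological replicates than the 2 arrays a group used here, so the calls are not directly comparable. Past these thresholds, applied here with the unadjusted P of limma, only AT5G16980 was lower, where 2.34% of all probe sets were. AER met neither threshold, and DTX4 met that for the factor but not that for P. After adjustment limma called none of the probe sets (0.0% of 22746, the lowest adjusted p was 0.378), while 1317 were under 0.05 before it. The methods' t-test called 0 after adjustment as well, and limma with an intensity trend called 2, none of them AER, AT5G16980 or DTX4. These counts describe genes chosen for this contrast. With 2 arrays a group an exact permutation test could not give a p below 0.333.

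The AER locus is part of a run of 5 alkenal reductase genes that follow each other directly on chromosome 5, in the order AT5G16960, AER, AT5G16980, AT5G16990 and AT5G17000. Of these 4 had a probe set of their own. AT5G16960, just before AER, had a log2 signal of 5.16 and 6.01 in 35S:OsGSTU4, and 6.28 and 6.52 in WT. It was below WT on both transgenic arrays, with a difference of -0.81 (0.40) that did not pass the test. AT5G16990, just after AT5G16980, had 8.77 and 9.17 in 35S:OsGSTU4, and 8.69 and 8.99 in WT. Its groups overlapped and its difference was 0.13 (0.29), between -0.07 and 0.33 over the alternatives. Signal in the run thus differed by -1.86 at AT5G16980 and by 0.13 at the next gene, and since these genes are close relatives, how far a probe set also takes up the transcripts of its neighbours was not tested.

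**Figure D2:**
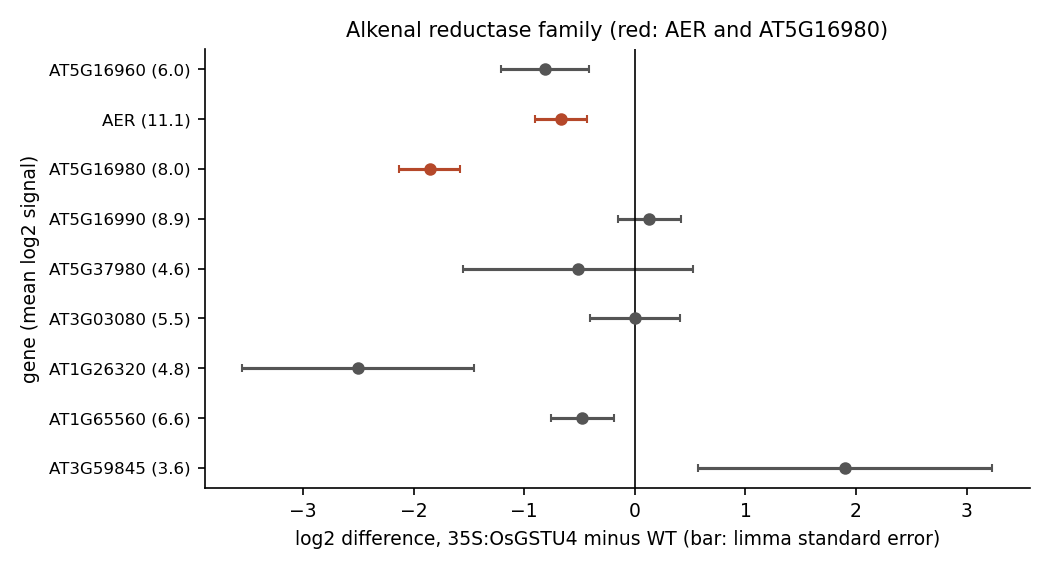
Log2 difference, 35S:OsGSTU4 minus WT, of the 9 measured genes of the alkenal reductase family, with the mean log2 signal of each in brackets after its name. Bars are standard errors from limma, and red marks AER and AT5G16980, at -0.67 and -1.86, while the neighbouring AT5G16990 is at 0.13.

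The other members of the alkenal reductase family differed in both directions. The family was listed by locus from general knowledge of Arabidopsis genes, and 7 of its 10 members besides AER and AT5G16980 were measured, 4 lower and 3 higher in 35S:OsGSTU4 (5 and 2 under median centring and under quantile normalization), beside 46.0% of all probe sets with a lower mean. Their median difference was -0.48, against 0.04 over all probe sets, and turned to 0.24 without replicate 1 of 35S:OsGSTU4, while without its replicate 2 it was -0.24. Of these 7 genes 0 were past the thresholds of the study, beside 2.34% of all probe sets lower and 2.38% higher. An adjusted p under 0.05 was reached by 0 of them (0.895 to 0.999, limma), as by 0.0% of all probe sets. AT1G26320 had the largest difference, -2.50 (standard error 1.05), at 4.77 and 2.28 in 35S:OsGSTU4, and 5.52 and 6.54 in WT. Like DTX4 it was dim and lowest on replicate 2 of 35S:OsGSTU4. AT3G59845 ran the other way at 1.90 (1.33), where replicate 1 of WT stood at 0.99 and the other 3 arrays between 4.08 and 5.01. AT1G65560 had 6.58 and 6.10 in 35S:OsGSTU4, and 6.76 and 6.88 in WT, so that its groups were apart, with a difference of -0.48 (0.29). Of the 7 only AT5G16990 was brighter than the median probe set.

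MATE transporters as a family did not follow DTX4 in one direction. By symbol the annotation names few of them, and AT5G52050 (DTX50) was the 1 measured besides DTX4, at 7.72 and 7.61 in 35S:OsGSTU4, and 8.04 and 7.95 in WT, a difference of -0.33 (0.22). A list by locus was therefore added after the annotation had been seen. Of its 53 genes besides DTX4, 35 were measured, 22 lower and 13 higher, beside 46.0% of all probe sets with a lower mean. The counts were 24 and 11 with centred arrays, and 23 and 12 after quantile normalization. The groups were apart in the lower direction at 10, where 16.3% of all probe sets were. They were apart in the higher direction at 6, for which the share of all probe sets was not counted. Their median difference was -0.13, against 0.04 over all probe sets. That median was -0.38 without replicate 1 of 35S:OsGSTU4, -0.07 without its replicate 2, -0.39 without replicate 1 of WT and -0.01 without replicate 2 of WT. No transporter gene on it was lower past the thresholds of the study, where 2.34% of all probe sets were. Higher past them were 2.38% of all probe sets and 2 genes of the list, AT4G38380 at 1.46 (0.29) and AT1G33080 at 1.09 (0.36). Both were named after their values were seen. Neither passed an adjusted p of 0.05 (0.617 and 0.857, limma). The brightest were AT3G23550 at -0.07 (0.39), AT1G61890 at -0.33 (0.34) and AT3G21690 at -0.30 (0.39), each within its standard error of 0. The largest differences were at dim probe sets, AT2G38510 at -2.04 (1.05), AT1G73700 at -1.96 (1.46) and AT3G03620 at 1.67 (0.59).

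DTX4 lies in a group of 6 MATE genes on chromosome 2, of which the only other one measured was AT2G04050, named after its values were seen. That gene had 6.22 and 2.93 in 35S:OsGSTU4, and 6.78 and 3.65 in WT. In both groups replicate 2 was far below replicate 1, and the difference between the genotypes, -0.64, was smaller than its standard error of 1.75. DTX4 and AT5G16980 also had their lower value at replicate 2 of each group, and AER had it there in 35S:OsGSTU4 but not in WT.

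**Figure D3:**
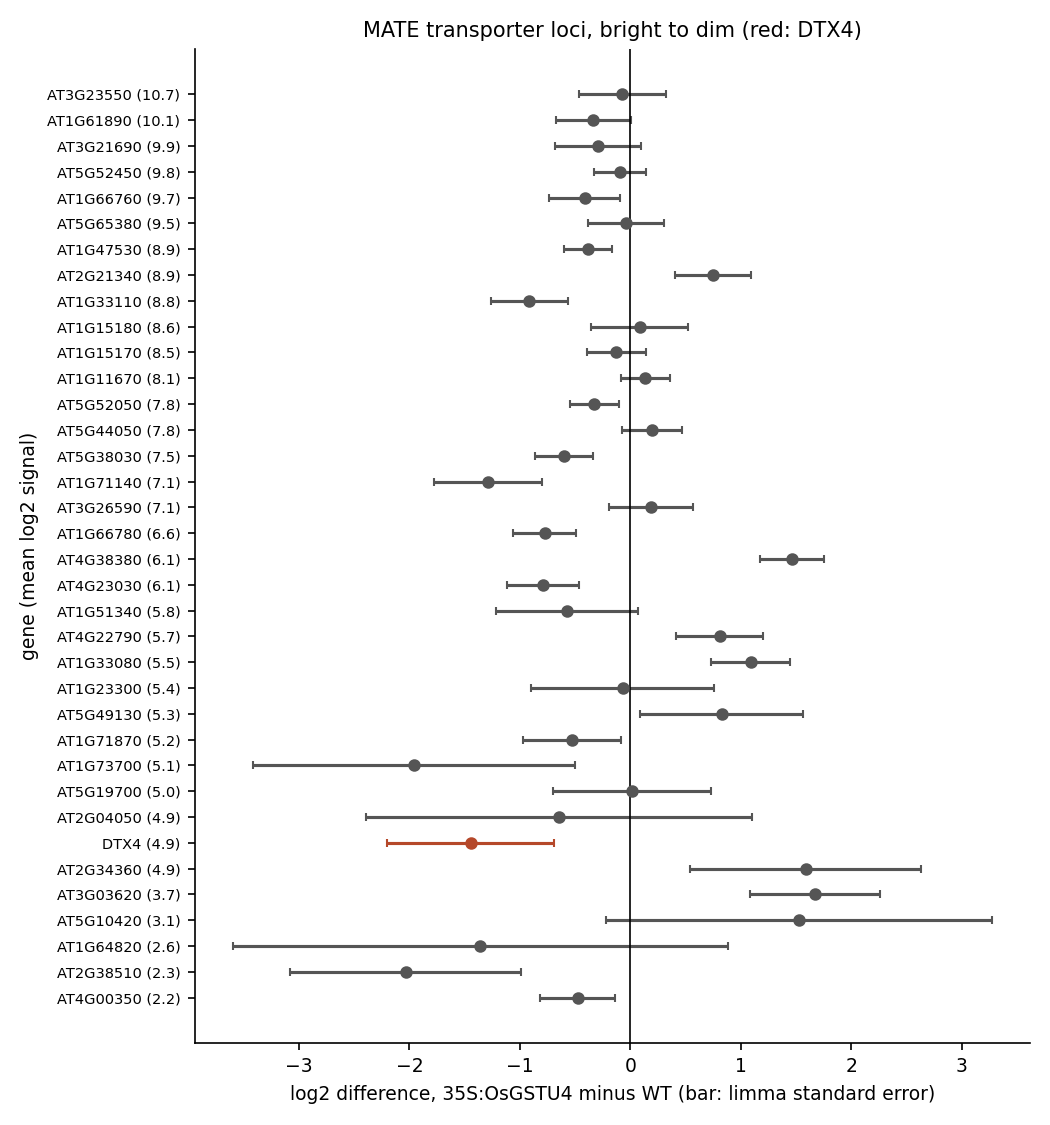
Log2 difference, 35S:OsGSTU4 minus WT, of 36 measured MATE transporter loci, from the brightest at the top to the dimmest, with the mean log2 signal in brackets. Bars are standard errors from limma, and DTX4 (red) is at -1.45. The loci above it lie on both sides of 0, and bars widen for most dim loci.

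Other enzymes that remove reactive carbonyls showed no common direction. Of 24 listed genes 10 were measured, 5 lower and 5 higher in 35S:OsGSTU4, beside 46.0% of all probe sets with a lower mean. Median centring and quantile normalization gave the same counts. Their median was 0.01. Past the thresholds of the study were 0 of the 10, beside 2.34% of all probe sets lower and 2.38% higher. An adjusted p under 0.05 was reached by 0 of them (0.857 to 0.970, limma), as by 0.0% of all probe sets. AOR, named after its values were seen, encodes a chloroplast enzyme that like AER reduces the double bond of reactive carbonyls. It had 9.82 and 10.40 in 35S:OsGSTU4, and 9.69 and 10.01 in WT. Its groups overlapped, and its difference of 0.26 (0.33) ran opposite to that of AER. AT3G04000 was the most similar to AER in size, at 8.62 and 8.54 in 35S:OsGSTU4, and 9.16 and 9.42 in WT, a difference of -0.71 (0.24). The aldehyde dehydrogenases, which oxidise aldehydes to acids, differed in both directions. ALDH7B4 had -0.39 (0.22) with 12.79 and 12.65 in 35S:OsGSTU4, and 13.11 and 13.10 in WT. ALDH11A3 had 0.10 (0.32) and ALDH10A8 -0.08 (0.22). ALDH22A1 had 7.90 and 8.18 in 35S:OsGSTU4, and 7.51 and 7.66 in WT, a difference of 0.46 (0.25) with groups apart in the higher direction. AT1G54870, a dim probe set, had 1.54 (0.81).

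Of the genes listed as responding to electrophiles few were measured, 5 of 24 besides the 3 genes. All 5 had a lower mean in 35S:OsGSTU4, as had 46.0% of all probe sets. The groups were apart in the lower direction at 2, as at 16.3% of all probe sets, and overlapped at 3 of the 5. Without replicate 2 of 35S:OsGSTU4, or without replicate 1 of WT, 4 of 5 were lower. Their median was -0.76. It was -1.32 without replicate 1 of 35S:OsGSTU4, -0.26 without its replicate 2, -0.37 without replicate 1 of WT and -1.73 without replicate 2 of WT. Among them 1 was lower past the thresholds of the study, as were 2.34% of all probe sets, and 0 passed an adjusted p of 0.05 (0.798 to 0.960, limma). The list was written with results of these arrays known and is not independent evidence of a direction. The gene past the thresholds was UGT73B4, a glucosyltransferase gene, at 6.33 and 6.32 in 35S:OsGSTU4, and 8.48 and 7.43 in WT, a difference of -1.63 (0.45). AT2G29500, a small heat shock protein gene, had 6.68 and 6.59 in 35S:OsGSTU4, and 8.37 and 7.27 in WT, and so its groups were apart as well. The study printed both UGT73B4 and AT2G29500 as higher in the transgenic line, opposite to the sign here. UGT73B5 had -0.76 (0.56), and the glutathione S-transferase gene GSTU25 had -0.74 (0.55), each with overlapping arrays. The fifth gene was AT2G04050, described above.

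**Figure D4:**
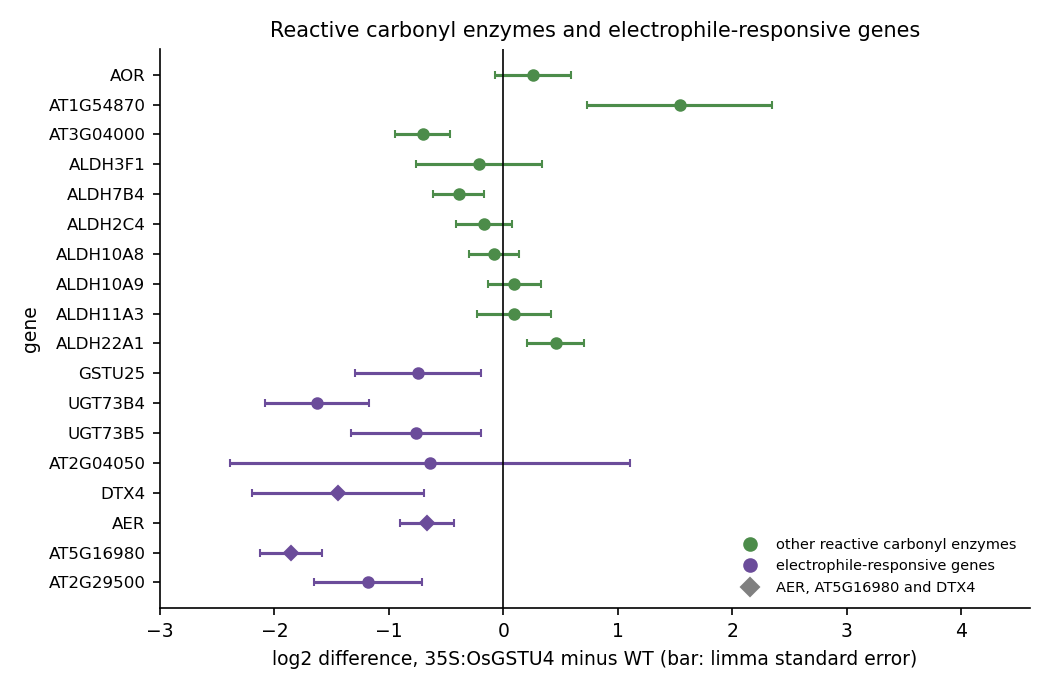
Log2 difference, 35S:OsGSTU4 minus WT, of 10 reactive carbonyl enzymes (green) and 8 electrophile-responsive genes (purple), with AER, AT5G16980 and DTX4 as diamonds. Bars are standard errors from limma. The green points lie on both sides of 0. The purple ones are all below it, where 46.0% of all probe sets had a lower mean. But their list was written with results of these arrays known, and the diamonds were chosen for being lower.

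The genes whose values over the 4 arrays were most like those of each gene were found by Euclidean distance, after each gene had been centred on its own mean, among genes within 2 log2 units of its signal. AT4G32870 was nearest to AER, at a distance of 0.07 log2 units where the median over 2642 genes was 0.77, followed by AT5G59480 at 0.10 and AT5G61820 at 0.11. AT4G32870 had 9.84 and 9.62 in 35S:OsGSTU4, and 10.30 and 10.52 in WT. No gene followed AT5G16980 so closely. The nearest were AT3G16990 at 0.68, AT3G60420 at 0.68 and AT1G30990 at 0.77, where the median over 6432 genes was 2.00. AT3G60420, lower here, is printed by the study as higher in the transgenic line. AT3G16990 had 7.08 and 6.49 in 35S:OsGSTU4, and 8.36 and 7.78 in WT, a smaller difference of -1.29. For DTX4 the nearest were AT1G23960 at 0.30, AT1G57670 at 0.31 and AT1G74300 at 0.36, with a median of 2.60 over 5173 genes. AT1G74300 had 5.56 and 4.19 in 35S:OsGSTU4, and 6.42 and 6.09 in WT. With 4 arrays and so many genes some will be close to any pattern, so these distances are a description.

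The 3 genes kept their direction under every processing tried, but most of these could not have reversed it. Groups that do not overlap keep their sign whichever array is left out. The replicate block, the filter and the mean over all probe sets of a gene return the same difference. AER ran from -0.75 to -0.58 and AT5G16980 from -2.07 to -1.64, whichever array was left out. Without replicate 1 of 35S:OsGSTU4, the array with the low ribosomal RNA control, AER had -0.74 and AT5G16980 had -2.07, while DTX4 moved as given above. In every fit that kept all arrays AT5G16980 was past the thresholds of the study. Neither AER nor DTX4 was past them in any such fit that gave it a value. Probe sets lower past the thresholds ran from 47 of 11373 with the filter to 652 of 22746 with the replicate block. These fits reuse the same arrays and so are not independent, and AT5G16980 was chosen for being lower in this contrast.

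**Figure D5:**
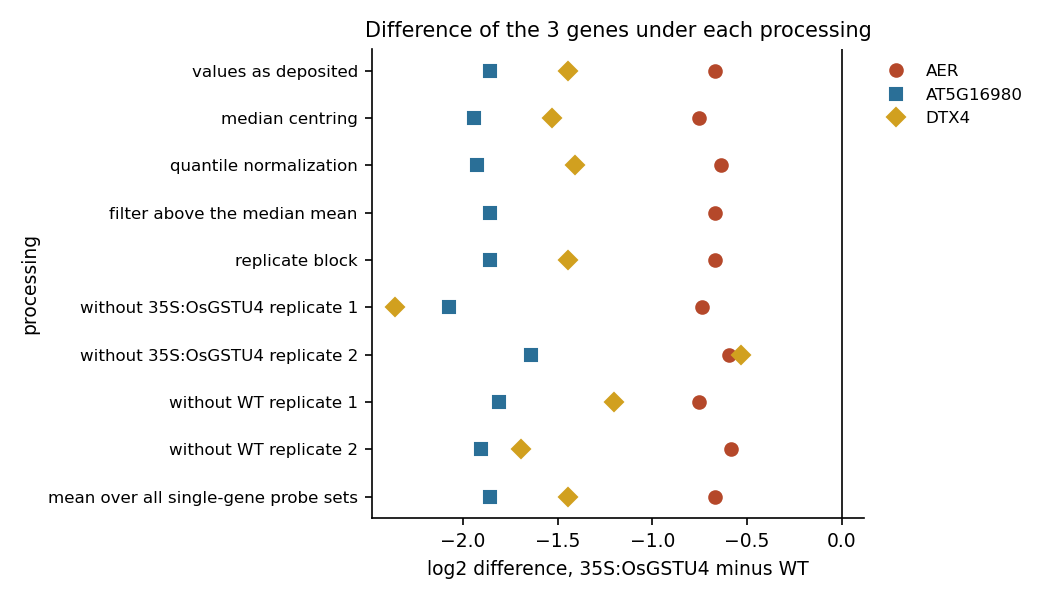
Log2 difference, 35S:OsGSTU4 minus WT, of AER (circles), AT5G16980 (squares) and DTX4 (diamonds) under each processing, given on the vertical axis. All points lie below 0, and DTX4 runs from -2.36 to -0.53 as an array of 35S:OsGSTU4 is left out. DTX4 has no point under the filter, which it did not pass.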

How the data were processed

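Whole-seedling RNA was measured on 4 arrays, 2 for each genotype. The deposited values are log2 signals per probe set, which the authors made from the scanned arrays, and the submitters' notes name RMA with no version. The values had unequal array distributions, a trimmed mean near 500 on the linear scale (500.0 to 500.1, between the 2nd and 98th percentile) and a floor at 0, so they are not on an RMA scale. After 64 control probe sets had been left out, 22746 were fitted with limma 3.58.1 in R 4.3.3, with no filter or block, and p was adjusted over all of them (Benjamini-Hochberg). The fit was tested on simulated data. The platform annotation gave 13513 probe sets 1 gene, 503 several and 8730 none. Of the first, 13436 were tied to a gene by Entrez ID, 72 by symbol or locus and 5 not. A gene was read by its brightest probe set. AER and AT5G16980 passed a filter above the median mean (7.35) and DTX4 did not.

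The genes and lists were chosen with earlier results of these data known. Named were the 3 genes, up to 3 brightest and 3 largest differences per list, and the 3 genes nearest to each. The MATE list by locus, and genes said to be named after their values were seen, fall outside that rule. Alternatives were median centring, quantile normalization, the filter, an intensity trend, the methods' t-test, the replicate block, all probe sets of a gene and leaving out each array. No sequence is shown, since none was given for these genes. Figures were drawn with matplotlib 3.10.9.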

Additional observations from a re-analysis of the deposited data

How the results depend on the processing

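AER, AT5G16980 and DTX4 had a lower mean in 35S:OsGSTU4 under all 9, 9 and 8 alternatives that gave a value. Since their groups did not overlap, leaving out an array could not reverse this. The block, the filter and the mean over probe sets return the same difference where they give one. Leaving out an array gave -0.75 to -0.58 for AER, -2.07 to -1.64 for AT5G16980 and -2.36 to -0.53 for DTX4. Median centring gave -0.75, -1.94 and -1.53, and quantile normalization -0.64, -1.93 and -1.41. The filter above the median mean left no value for DTX4. Probe sets past the thresholds of the study, 1074 in all, numbered 96 above the median mean, 583 with an intensity trend and 479 with the methods' t-test, and 1286 to 1815 with an array left out (1708 without WT replicate 1, 1815 without WT replicate 2). At an adjusted p under 0.05 the intensity trend called 2 and every other alternative 0. Above the median mean 0 of the 1 remaining alkenal reductase relative and 2 of the 2 remaining electrophile-responsive genes were lower, since fewer genes were tested. Without an array, 3 to 6 of the 7 alkenal reductase relatives, 4 to 7 of the 10 carbonyl enzymes and 4 to 5 of the 5 electrophile-responsive genes were lower. MATE genes lower numbered 22 with the list by locus, added after the annotation had been seen, and 1 by symbol, since that list holds more genes. The labels give same-numbered replicates only a number in common. The correlation of their deviations over all probe sets was 0.05, which cannot show whether they shared a batch. With the replicate block the 3 differences were the same, with standard errors of 0.26 for AER, 0.26 for AT5G16980 and 0.49 for DTX4. In that fit 1301 probe sets passed the thresholds and 0 an adjusted p of 0.05. The signal of dim probe sets such as DTX4 limits precision, and 2 arrays a group limit every value.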
